A study of Mus musculus with 6 samples.

Results

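Expression of 10 genes that encode basement membrane components was examined in EGFP+ cells sorted from mouse ventricles 4 weeks after transverse aortic constriction (TAC), an operation in which the aorta is tied to a smaller bore so that the left ventricle works against raised pressure. The genes were taken by symbol from the deposited table and are the collagen chains *Col4a1*, *Col4a2*, *Col15a1* and *Col18a1*, the laminin chains *Lama2*, *Lama4*, *Lamb1* and *Lamc1*, the nidogen *Nid1*, and *Hspg2*, which encodes perlecan. They are 10 of the 28987 genes in the table, and all 10 were among the 15109 genes with a mean linear value of at least 1 over the 6 libraries, which were tested. Mice of both groups carried a tamoxifen-inducible MerCreMer (MCM) cDNA inserted in the *Postn* locus and a Cre-dependent R26 eGFP reporter allele. By this design, EGFP marks cells that had activated the fibroblast gene *Postn* in the presence of tamoxifen. Markers of other cell types in the sorted cells are given below. The 3 control libraries come from mice with these alleles alone, as the labels give them, and the 3 libraries labelled Hsp47-deleted from mice that also carried loxP-flanked *Hsp47*, the gene of a collagen chaperone of the endoplasmic reticulum. Per the labels, mice were 8 to 10 weeks old and received tamoxifen by injection (100 mg/kg) and in chow (40 mg/kg), whereas the study's methods give other doses. Sequencing was done in separate runs, and the labels assign control replicates 3 and 4 to one of them (the first run) and every other library, which is control replicate 2 and the 3 labelled Hsp47-deleted, to a later-numbered one (the second run). The RNA went through an amplification step ahead of library construction.

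Basement membranes are thin sheets of matrix that surround cardiomyocytes, capillaries and nerves. Laminin trimers of an alpha, a beta and a gamma chain assemble at the cell surface, collagen IV forms a covalently crosslinked network beside them, and nidogens and perlecan bridge the networks. Collagens XV and XVIII lie at the border between the basement membrane and the fibrillar matrix, and Hsp47 binds the triple helix of procollagens in the endoplasmic reticulum, those of collagen IV included.

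*Col4a1* and *Col4a2*, which encode the chains of the most widespread collagen IV trimer, are a head-to-head gene pair whose annotated start sites lie 21 bases apart on chromosome 8, on opposite strands. Their promoter windows (250 bases before to 50 after the start site, from RefSeq on GRCm38.p6) are shown because the windows of this pair share sequence. The *Col4a1* window is chr8:11312777-11313076 on the minus strand and the *Col4a2* window is chr8:11312555-11312854 on the plus strand. Both are written 5′ to 3′ on the strand of their gene, with capitals for GC boxes (GGGCGG) and CCAAT boxes (CCAAT) on either strand.
Col4a1: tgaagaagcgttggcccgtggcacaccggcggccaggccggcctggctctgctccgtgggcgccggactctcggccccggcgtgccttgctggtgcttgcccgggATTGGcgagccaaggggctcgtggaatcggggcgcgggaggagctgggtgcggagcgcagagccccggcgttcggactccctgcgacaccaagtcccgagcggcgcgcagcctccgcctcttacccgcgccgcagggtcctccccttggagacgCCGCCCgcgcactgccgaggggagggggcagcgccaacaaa
Col4a2: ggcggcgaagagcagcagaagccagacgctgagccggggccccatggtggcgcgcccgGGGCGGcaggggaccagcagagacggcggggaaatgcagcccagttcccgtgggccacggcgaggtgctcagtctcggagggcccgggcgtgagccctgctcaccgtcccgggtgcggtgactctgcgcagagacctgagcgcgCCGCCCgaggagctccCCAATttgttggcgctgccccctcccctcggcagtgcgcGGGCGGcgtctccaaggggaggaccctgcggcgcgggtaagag
The windows overlap by 78 bases. The *Col4a1* window holds 1 GC box and 1 CCAAT box, and the *Col4a2* window 3 GC boxes and 1 CCAAT box. The GC box from 11312812 to 11312817 lies in both windows, between the start sites. Neither window holds TATAAA on either strand. Among all 32851 RefSeq promoter windows of this length, 35.7% hold a GC box, 37.4% a CCAAT box and 13.6% TATAAA. GC content was 74.0% in the *Col4a1* window and 73.7% in the *Col4a2* window, against a median of 52.7% over all windows. Of the 10 genes, 8 had a promoter window in the RefSeq table, and *Lama4* and *Lamc1* had none.

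*Hsp47*, listed as *Serpinh1* (chr7:99345376-99353239, minus strand, GENCODE annotation of GRCm38), had log2 values of 7.60, 6.28 and 6.10 in the controls and of 6.87, 6.67 and 6.66 in the libraries labelled Hsp47-deleted. Here and below, control values are listed in the order of replicates 2, 3 and 4, so that the second-run control comes first, and Hsp47-deleted values in the order of replicates 1, 2 and 3. Over all 6 libraries the targeted gene was not lower under the Hsp47-deleted label (log2 difference 0.072, SE 0.43, limma, Benjamini-Hochberg (BH)-adjusted p = 0.947), although all 3 Hsp47-deleted libraries lay below the control of their own run, by 0.87 on average. The paper reports efficient loss of Hsp47 protein in sorted EGFP+ myofibroblasts by Western blot, which RNA values do not measure. Groups and directions are given here by the libraries' labels. All values are the deposited log2(value + 1). Neither their linear unit nor the read depth of a library is given. On the linear scale the sum over genes lay between 690499 and 855404 in each library. The median log2 difference of all tested genes, libraries labelled Hsp47-deleted minus control, was 0.355 and not 0, so differences are also read against this shift. Because run and label overlap in part, the difference from the second-run control alone is given beside the pooled one of single genes, without a test. The median of all tested genes in that comparison was 0.288. Medians of the other gene lists are given for the pooled comparison only. In sorted bulk RNA, fewer cells of a type and less RNA per cell cannot be told apart.

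No basement membrane gene was called different between the groups after adjustment over all tested genes (limma, 0 of 10, against 0.245% of all tested genes). *Col18a1* and *Hspg2* were about 2 times as high in the libraries labelled Hsp47-deleted, *Col4a1* and *Col4a2* were higher by smaller amounts, and the 4 laminin chains, *Nid1* and *Col15a1* had log2 differences between -0.29 and 0.21. At an unadjusted p under 0.05, 2 of the 10 genes were higher, where 14.5% of all tested genes were, and 0 were lower, where 0.755% were. The groups did not overlap, with the libraries labelled Hsp47-deleted higher, at 3 of the 10 genes, against 18.3% of all tested genes. The reverse held for 0 of the 10, against 1.5%. The median log2 difference over the 10 genes was 0.14, which is below the all-gene median, and 4 of the 10 genes lay above that median. The linear values of the 10 genes summed to between 2060 and 2390 in the control libraries and to between 2010 and 2510 in those labelled Hsp47-deleted, so the groups overlapped in the summed level.

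**Figure D1:**
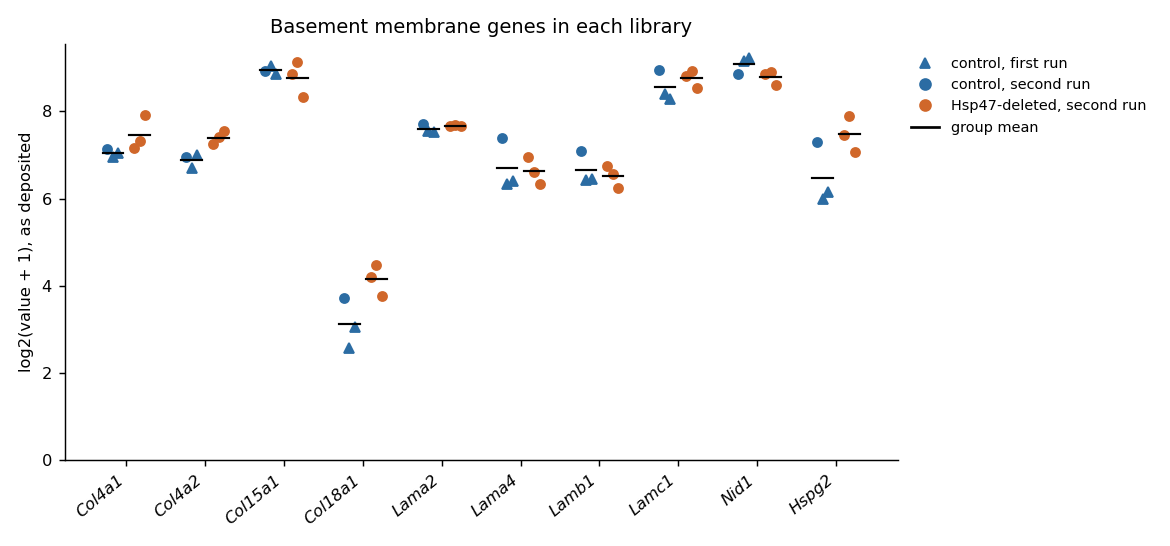
Deposited log2(value + 1) of the 10 basement membrane genes (vertical axis) in each of the 6 libraries, with triangles for the first-run controls, circles for second-run libraries and a line at each group mean. The libraries labelled Hsp47-deleted lie above every control at *Col4a1*, *Col4a2* and *Col18a1*, and control replicate 2 lies far above the other controls at *Lama4* (7.39 against 6.33 and 6.40) and *Hspg2* (7.30 against 6.0 and 6.14).

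The collagen IV chains *Col4a1* and *Col4a2* were higher in every library labelled Hsp47-deleted than in any control, but by amounts near the shift of all genes. *Col4a1* (chr8:11198423-11312826, minus strand) had log2 values of 7.14, 6.96 and 7.04 in the controls and of 7.16, 7.33 and 7.91 in the libraries labelled Hsp47-deleted. The lowest Hsp47-deleted library lay only just above the highest control, and Hsp47-deleted replicate 3 stood highest. The log2 difference was 0.42 (SE 0.31, 95% interval from -0.28 to 1.13, limma, BH-adjusted p = 0.508), and it was 0.33 against the second-run control. The paper reports the other direction, lower *Col4a1* mRNA, in cultured cardiac fibroblasts with *Hsp47* deleted. That result comes from other cells and from real-time PCR. *Col4a2* (chr8:11312805-11449287, plus strand) read 6.95, 6.71 and 7.00 in the controls and 7.24, 7.40 and 7.54 in the libraries labelled Hsp47-deleted, again with no overlap. Its log2 difference was 0.51 (SE 0.27, 95% interval from -0.12 to 1.14, limma, BH-adjusted p = 0.390) and 0.45 against the second-run control. At both genes the second-run control differed from the mean of the first-run controls by little (0.14 for *Col4a1* and 0.095 for *Col4a2*). The first exons of the pair overlap on opposite strands only from 11312805 to 11312826, and the longest transcripts have 6615 and 6450 bases. *Col4a2* also overlaps the antisense gene *Gm15419*. The sources used here do not state that strand was used, so reads in these stretches could be counted to either gene. *Col15a1* likewise shares exon sequence with the antisense gene *Gm12426*, which has values here. *Lama2* and *Nid1* share exon sequence with antisense genes that are not among the deposited genes.

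The remaining collagen IV chains, which form trimers of narrower distribution, did not show this separation. *Col4a3*, *Col4a4*, *Col4a5* and *Col4a6* had log2 differences of 0.14, 0.69, -0.02 and 0.11 with overlapping groups (limma, BH-adjusted p from 0.567 to 0.979). *Col4a4* was high in control replicate 2 (3.54) and low in control replicates 3 and 4 (1.52 and 1.83), so its pooled difference turned to -0.55 against the second-run control. For *Col4a3*, *Col4a5* and *Col4a6* that value was 0.32, -0.32 and -0.12.

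The multiplexins *Col15a1* and *Col18a1*, which are collagens with interrupted helices and heparan or chondroitin sulphate chains, had pooled differences of opposite sign. *Col18a1* (chr10:77052178-77166548, minus strand), whose product yields the fragment endostatin, had log2 values of 3.72, 2.56 and 3.04 in the controls and of 4.19, 4.47 and 3.77 in the libraries labelled Hsp47-deleted. The groups did not overlap, but Hsp47-deleted replicate 3 lay only just above control replicate 2. The group means were 3.11 ± 0.58 and 4.14 ± 0.35 (SD, n = 3 each). The log2 difference was 1.03 (SE 0.39, 95% interval from 0.13 to 1.93), a 2.05-fold difference on this scale, with an unadjusted p of 0.0296 and a BH-adjusted p of 0.306 in limma. Against the second-run control it was 0.42. *Col15a1* (chr4:47208161-47313167, plus strand), a collagen of capillary and muscle basement membranes, read 8.94, 9.05 and 8.86 in the controls and 8.87, 9.14 and 8.33 in the libraries labelled Hsp47-deleted. The groups overlapped, since Hsp47-deleted replicate 2 was the highest library of all and replicate 3 the lowest. Its log2 difference was -0.17 (SE 0.32, 95% interval from -0.91 to 0.57, limma, BH-adjusted p = 0.810), and -0.16 against the second-run control.

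The laminin alpha chains *Lama2* and *Lama4* had pooled differences within the spread of the libraries. *Lama2* (chr10:26980036-27619758, minus strand) encodes the alpha chain of the laminins of muscle basement membranes. It had log2 values of 7.71, 7.56 and 7.52 in the controls and of 7.66, 7.68 and 7.67 in the libraries labelled Hsp47-deleted. The range over the 6 libraries was the narrowest of the 10 genes, with an SD of 0.10 in the controls and 0.0078 in the libraries labelled Hsp47-deleted (n = 3 each). The log2 difference was 0.074 (SE 0.26, 95% interval from -0.53 to 0.68, limma, BH-adjusted p = 0.906) and -0.040 against the second-run control. *Lama4* (chr10:38965515-39110188, plus strand) encodes an alpha chain of vessel and fat cell basement membranes. It read 7.39, 6.33 and 6.40 in the controls and 6.95, 6.62 and 6.33 in the libraries labelled Hsp47-deleted. Control replicate 2 stood above every other library, and the remaining controls lay at the low end of the Hsp47-deleted range. The pooled log2 difference was therefore near 0 at -0.075 (SE 0.37, 95% interval from -0.94 to 0.79, limma, BH-adjusted p = 0.937), whereas the libraries labelled Hsp47-deleted averaged 0.76 less than the second-run control.

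The beta and gamma chains *Lamb1* and *Lamc1*, which pair with each of these alpha chains, showed the same high value in control replicate 2. *Lamb1* (chr12:31265234-31329644, plus strand) had log2 values of 7.09, 6.41 and 6.45 in the controls and of 6.75, 6.55 and 6.25 in the libraries labelled Hsp47-deleted. The libraries labelled Hsp47-deleted spanned the first-run controls and all lay below the second-run control. The log2 difference was -0.13 (SE 0.32, 95% interval from -0.87 to 0.60, limma, BH-adjusted p = 0.853), and -0.575 against the second-run control. *Lamc1* (chr1:153218922-153332786, minus strand), the gamma chain of most laminins, read 8.96, 8.41 and 8.29 in the controls and 8.81, 8.92 and 8.55 in the libraries labelled Hsp47-deleted. Here the libraries labelled Hsp47-deleted lay between the first-run controls and the second-run control. Its log2 difference was 0.21 (SE 0.31, 95% interval from -0.52 to 0.93, limma, BH-adjusted p = 0.765), and -0.20 against the second-run control. The sign for *Lamc1* and for *Lama2* thus turned with the choice of control, and centring each library on its median turned it too (-0.21 for *Lamc1* and -0.34 for *Lama2*).

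Of the laminin chains outside the 10 genes, *Lamb2* stood apart from its relatives. *Lamb2* encodes the beta chain that takes the place of *Lamb1* at the neuromuscular junction, in vessels and in mature muscle. Its log2 values were 5.99, 4.91 and 4.92 in the controls and 6.73, 6.85 and 6.43 in the libraries labelled Hsp47-deleted. The groups did not overlap, and the log2 difference was 1.39 (SE 0.37) with an unadjusted p of 0.00595 and a BH-adjusted p of 0.259 in limma. It was 0.67 against the second-run control. *Lama5* had a log2 difference of 0.52 with overlapping groups, which turned to -0.080 against the second-run control. *Lama1*, *Lama3*, *Lamb3* and *Lamc3* had a mean linear value under 1 and were not tested.

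**Figure D2:**
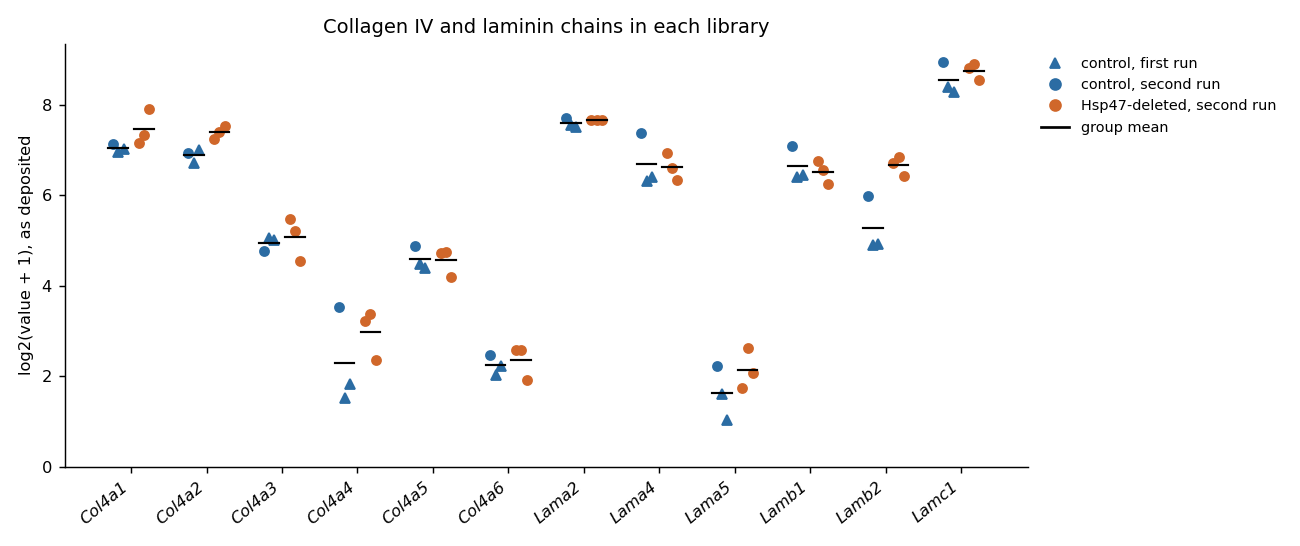
Deposited log2(value + 1) of collagen IV and laminin chains (vertical axis) in each of the 6 libraries, with triangles for the first-run controls, circles for second-run libraries and a line at each group mean. *Col4a1*, *Col4a2* and *Lamb2* are the chains shown at which all 3 libraries labelled Hsp47-deleted lie above all 3 controls.

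The linker genes had pooled differences of opposite sign. *Nid1* (chr13:13437551-13512269, plus strand) encodes nidogen-1, which binds the laminin gamma chain and collagen IV. It had log2 values of 8.87, 9.16 and 9.22 in the controls and of 8.86, 8.92 and 8.60 in the libraries labelled Hsp47-deleted. The first-run controls were the 2 highest libraries, and the second-run control lay within the range of the libraries labelled Hsp47-deleted. The log2 difference was -0.29 (SE 0.29, 95% interval from -0.96 to 0.38, limma, BH-adjusted p = 0.638), the lowest of the 10 genes, and it was -0.076 against the second-run control. *Nid2*, the second nidogen, had a log2 difference of 0.22 with overlapping groups, and of 0.16 against the second-run control. *Hspg2* (chr4:137468769-137570630, plus strand) encodes perlecan, a large heparan sulphate proteoglycan. It read 7.30, 6.0 and 6.14 in the controls and 7.47, 7.90 and 7.06 in the libraries labelled Hsp47-deleted. The first-run controls lay below all other libraries, and Hsp47-deleted replicate 3 lay below the second-run control, so the groups overlapped. The group means were 6.48 ± 0.71 and 7.48 ± 0.42 (SD, n = 3 each). The log2 difference was 1.00 (SE 0.43, 95% interval from 0.01 to 1.99), with an unadjusted p of 0.0481 and a BH-adjusted p of 0.324 in limma, and it was 0.18 against the second-run control.

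**Figure D3:**
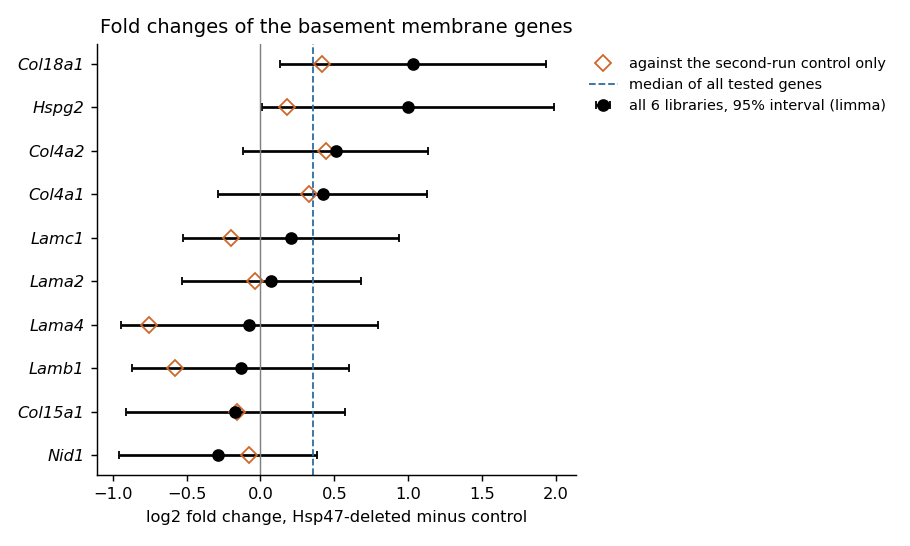
Log2 difference of each basement membrane gene, libraries labelled Hsp47-deleted minus control (horizontal axis), with black points and 95% intervals from limma on all 6 libraries, open diamonds for the difference from the second-run control alone and a dashed line at the median of all tested genes (0.355). The intervals of *Col18a1* and *Hspg2* lie above 0 while their diamonds lie at 0.42 and 0.18, and the diamonds of *Lama4* and *Lamb1* lie at -0.76 and -0.575.

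Control replicate 2 decided which of the 10 genes passed the adjusted threshold. Without it, *Hspg2* (log2 difference 1.41, limma, BH-adjusted p = 0.0246) and *Col18a1* (1.34, limma, BH-adjusted p = 0.0368) were called, but the share called among all tested genes was then 18.3%, and run and label coincide in that comparison. The median deviation of the 10 genes from their control means was 0.26 in control replicate 2, -0.16 and -0.083 in the first-run controls, and 0.18, 0.24 and 0.034 in the libraries labelled Hsp47-deleted. Over all tested genes the same medians were 0.074, -0.13 and 0.055 in the controls and 0.32, 0.40 and 0.33 in the libraries labelled Hsp47-deleted. Thus the 10 genes stood above the all-gene median in control replicate 2 and below it in every library labelled Hsp47-deleted.

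Differences between a pair of genes within a library were compared next, because rescaling a library as a whole moves them little. With every library rescaled to the same linear sum, the group difference that moved most of the 5 given next, that of *Col18a1* minus *Col15a1*, was 1.22 in place of 1.2. Such a difference also holds the unequal lengths of the genes, so only its change between libraries is read, and levels of different genes are not ranked. With 3 libraries against 3, the exact two-sided permutation test cannot give a p under 0.10. *Col4a2* minus *Col4a1* changed least between the groups of the 5 pairs examined, by 0.088 on the log2 scale (exact permutation p = 0.8, BH over 5 pairs 0.8), and spanned 0.45 over the 6 libraries. *Lamb1* minus *Lamc1* was -1.86, -1.99 and -1.84 in the controls and -2.06, -2.36 and -2.3 in the libraries labelled Hsp47-deleted. All 3 libraries labelled Hsp47-deleted lay below all 3 controls, by 0.34 on average (exact permutation p = 0.1, the smallest possible, BH over 5 pairs 0.25), and the value against the second-run control was -0.38. With quantile normalization this difference shrank to -0.074.

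*Col18a1* minus *Col15a1* also separated the groups without overlap. It was higher in the libraries labelled Hsp47-deleted by 1.2 on the log2 scale (exact permutation p = 0.1, BH over 5 pairs 0.25) and by 0.58 against the second-run control. *Lama4* minus *Lama2* (-0.15, exact permutation p = 0.7, BH 0.8) and *Nid1* minus *Lamc1* (-0.50, exact permutation p = 0.4, BH 0.667) overlapped between the groups. Against the second-run control these became -0.72 and 0.12. *Lamb2* minus *Lamb1* was chosen after its values were seen and was not tested. Its values were -1.10, -1.5 and -1.53 in the controls and -0.03, 0.29 and 0.18 in the libraries labelled Hsp47-deleted, so the libraries of the second run did not overlap either, with a difference of 1.25 from the second-run control. *Hspg2* minus *Nid1*, chosen in the same way, was higher by 1.29 in the pooled comparison and by 0.25 against the second-run control.

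**Figure D4:**
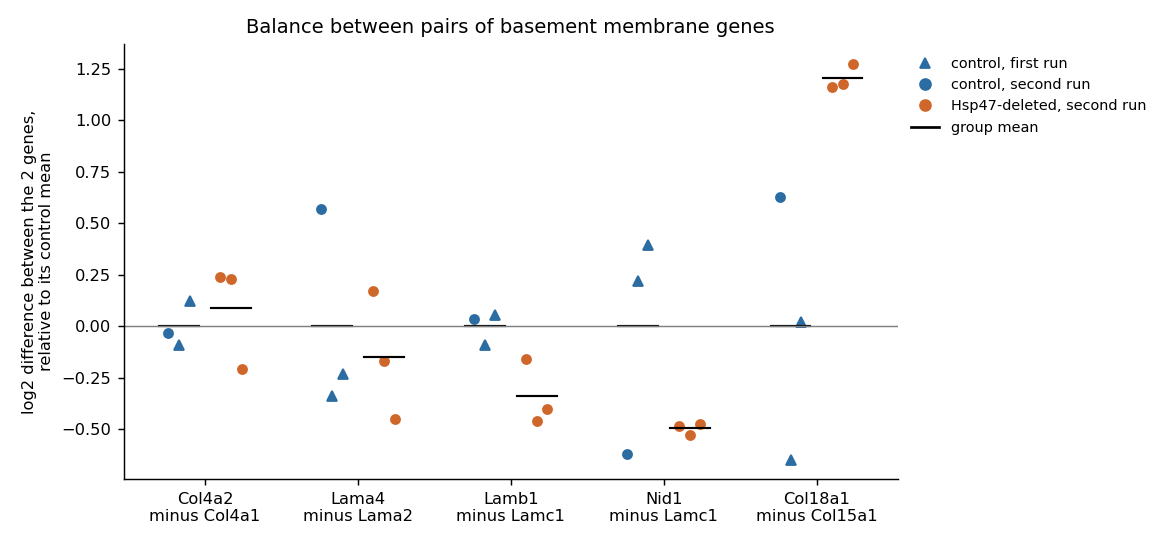
Log2 difference between the genes of each pair within a library, set relative to its control mean (vertical axis), for the 5 pairs tested, with triangles for the first-run controls, circles for second-run libraries and a line at each group mean. The groups separate at *Lamb1* minus *Lamc1* (group difference -0.34) and at *Col18a1* minus *Col15a1* (1.2), while for *Nid1* minus *Lamc1* the second-run control lies below all 3 libraries labelled Hsp47-deleted.

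The 10 transcripts share properties that the choice by symbol did not use. They are long, with the longest annotated transcript from 5172 bases (*Col15a1*) to 14187 bases (*Hspg2*), whereas the median tested gene has 3083 bases and 18.5% of the tested genes are longer than the shortest of the 10. GC content ran from 47.7% (*Lama2*) to 60.9% (*Hspg2*), against a median of 49.4%. Across the 14783 tested genes with an annotated transcript, which are not independent replicates, the log2 difference had a Pearson r of 0.336 with GC content. The 4 genes at or above 57% GC (*Col4a1*, *Col4a2*, *Col18a1* and *Hspg2*) were the 4 with the highest log2 differences, from 0.42 to 1.03, and the median of all 1691 tested genes in this band was 0.83. The 5 genes from 50% to 57% had log2 differences from -0.29 to 0.21, where the median of 5180 genes was 0.53. *Lama2*, the gene under 50%, had 0.074, where the median of 7912 genes was 0.18. The second-run control minus the mean of the first-run controls followed the same order, with medians of -0.15, 0.37 and 0.84 from the lowest to the highest band. When the trends of each library with GC content and length were taken out, which was decided on only once the values were known, *Col18a1* and *Hspg2* kept small positive differences (0.20 and 0.10), and *Col4a1* and *Col4a2* turned to -0.30 and -0.32. In that fit the largest difference was that of *Col15a1* (-0.84, limma, BH-adjusted p = 0.654). Some genes of the 4 lists examined below had an unadjusted p under 0.05. Of these, *Lamb2*, *Papln*, *Itga7* and *Plod3* lie at or above 57% GC, with pooled log2 differences of 1.39, 1.16, 0.81 and 0.83. *Smoc1*, *Plod1*, *Mmp2* and *Bmp1* (0.91 to 1.18) lie from 50% to 57% and *Plat* (0.90) under 50%.

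**Figure D5:**
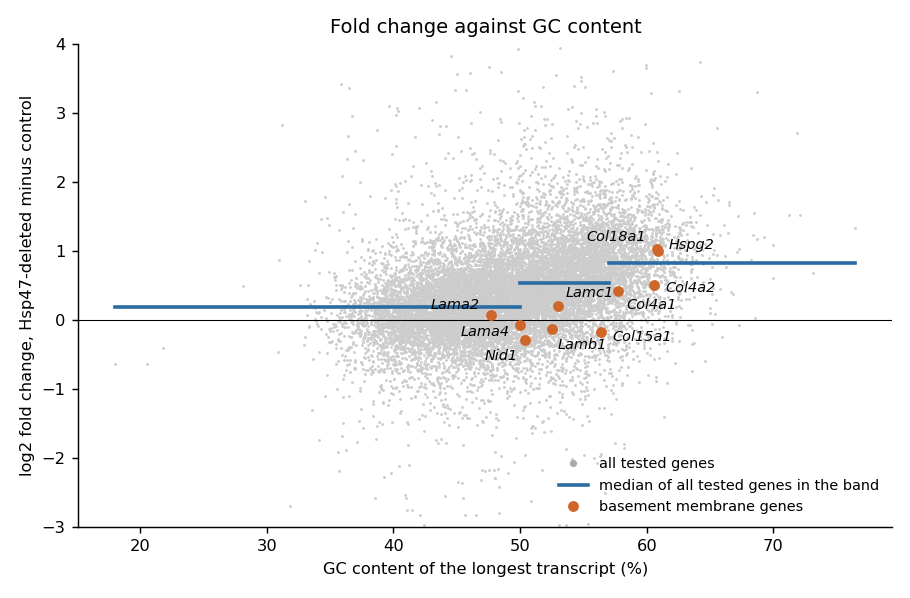
Log2 difference, libraries labelled Hsp47-deleted minus control (vertical axis), against the GC content of the longest transcript (horizontal axis, %), with grey points for tested genes, orange points for the 10 basement membrane genes and blue lines at the median of all tested genes below 50%, from 50% to 57% and at or above 57% GC (0.18, 0.53 and 0.83). The 41 genes beyond the vertical axis are not drawn, and *Col18a1* and *Hspg2* are those of the 10 that lie above the median of their band.

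Other basement membrane genes, including the remaining collagen IV and laminin chains, were examined as a list of 32 genes, of which 25 were tested. Of these, 3 were higher at an unadjusted p under 0.05 (*Lamb2*, *Papln* and *Smoc1*) and 0 were lower, where 14.5% and 0.755% of all tested genes were, and none passed the adjusted threshold. The median log2 difference was 0.44, against 0.355 over all tested genes. *Papln*, which encodes the proteoglycan-like papilin, was higher by 1.16 without overlap (SE 0.42, limma, BH-adjusted p = 0.297), and by 0.56 against the second-run control. *Smoc1*, which encodes a calcium-binding relative of SPARC, was higher by 1.18 with overlapping groups (SE 0.47, limma, BH-adjusted p = 0.315), and by 0.23 against the second-run control. *Sparc* itself, which binds collagen IV, had a log2 difference of 0.30, and of 0.22 against the second-run control.

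Among 12 receptor genes, for laminins and collagen IV apart from the plexin *Plxnd1*, 11 were tested. All 11 had positive pooled log2 differences with a median of 0.65, the highest that of *Plxnd1* (1.33, and 0.074 against the second-run control). In the pooled comparison 9 of the 11 lay above the median of all tested genes (0.355). Against the second-run control *Bcam* and *Itga6* turned to -0.36 and -0.27, and *Itga1*, *Itgb1*, *Dag1* and *Plxnd1* lay between 0.042 and 0.13. In that comparison *Itga2*, *Itga3*, *Itga7*, *Itgb4* and *Ddr1* lay above the median of all tested genes (0.288). The 1 gene at an unadjusted p under 0.05, where 14.5% of all tested genes were higher, was *Itga7*, the alpha subunit of the laminin-binding integrin of muscle cells. Its log2 values were 1.04, 0.89 and 0.74 in the controls and 1.71, 1.68 and 1.69 in the libraries labelled Hsp47-deleted. The groups did not overlap, and the difference of 0.81 (limma, BH-adjusted p = 0.306) was 0.66 against the second-run control. *Itga7* has 57.8% GC, and the median of all tested genes at or above 57% GC was 0.83. *Itgb1*, the beta subunit shared by many matrix receptors, and *Dag1*, which encodes dystroglycan, had log2 differences of 0.31 and 0.58 with overlapping groups, and of 0.12 and 0.042 against the second-run control.

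Genes for the assembly and modification of basement membrane proteins were all tested (18 of 18), with a median log2 difference of 0.45, against 0.355 over all tested genes. The lysyl hydroxylases *Plod3*, which also glycosylates collagen IV, and *Plod1* were higher at an unadjusted p under 0.05, which is 2 of 18 against 14.5% of all tested genes. *Plod3* was higher by 0.83 without overlap (limma, BH-adjusted p = 0.306), and *Plod1* by 0.91 with overlap (limma, BH-adjusted p = 0.324). Against the second-run control these were 0.37 and 0.27. *Plod3* has 57.8% GC, and 0.83 was also the median of all tested genes at or above 57% GC. *Pxdn*, the peroxidase that crosslinks collagen IV, had a difference of 0.49 with overlapping groups, which turned to -0.098 against the second-run control. *Crtap*, which encodes a partner of prolyl 3-hydroxylase, was noted after its values were seen. It read 7.15, 7.33 and 7.40 in the controls and 6.94, 6.58 and 6.57 in the libraries labelled Hsp47-deleted, and was the gene of this list whose groups separated in the lower direction (log2 difference -0.60, limma, BH-adjusted p = 0.342, and -0.45 against the second-run control).

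Enzymes that cut or trim basement membrane had the highest pooled median among these lists. All 13 tested genes of 15 had positive pooled log2 differences, with a median of 0.86, and 11 of them lay above the all-gene median of 0.355. Against the second-run control *Htra1*, *Ctss*, *Mmp14*, *Sulf2* and *Ctsb* turned to -0.83, -0.13, -0.097, -0.082 and -0.0054. The other tested genes of the list stayed positive, from 0.20 (*Plau*) to 1.83 (*Mmp3*), where the median of all tested genes was 0.288. At an unadjusted p under 0.05, 3 of the 13 were higher, where 14.5% of all tested genes were. *Mmp2*, the gelatinase that cleaves collagen IV, had log2 values of 8.45, 8.37 and 8.22 in the controls and of 9.28, 9.62 and 9.35 in the libraries labelled Hsp47-deleted. All libraries labelled Hsp47-deleted exceeded all controls, and the difference was 1.07 (SE 0.28, limma, BH-adjusted p = 0.252) and 0.97 against the second-run control. *Plat*, the tissue plasminogen activator, was higher by 0.90 (limma, BH-adjusted p = 0.282), and by 0.71 against the second-run control, without overlap. *Bmp1*, a protease that trims procollagens and laminin chains, was higher by 1.15 without overlap (limma, BH-adjusted p = 0.292), and by 0.33 against the second-run control. Over the 4 lists, 9 of 67 tested genes were higher at an unadjusted p under 0.05 and 0 were lower, where 14.5% and 0.755% of all tested genes were, and 0 passed the adjusted threshold.

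Markers of other cell types that make basement membrane were examined because the sorted cells could hold some of them. The linear values of 15 endothelial markers summed to 749 in the second-run control, to 158 and 318 in the first-run controls, and to between 358 and 706 in the libraries labelled Hsp47-deleted. None of the 15 was at 0 in all libraries, 13 had positive pooled log2 differences and 11 lay above the all-gene median. Against the second-run control *Pecam1*, *Cldn5*, *Erg* and *Vwf* were positive (0.19 to 0.63), and the others lay from -1.08 (*Egfl7*) to -0.14 (*Cdh5*). Control replicate 2 held the highest endothelial sum, with *Fabp4* highest (8.59), but *Vwf* and *Erg* were lowest there (3.11 and 4.49). *Lama2*, *Lama4*, *Lamb1* and *Lamc1* were also highest in that library, whereas *Col4a1*, *Col4a2*, *Col15a1*, *Col18a1*, *Nid1* and *Hspg2* were not. The part of endothelial RNA in the values of the 10 basement membrane genes was not tested. Mural cell markers summed to between 190 and 321 in controls and to between 184 and 280 in the libraries labelled Hsp47-deleted. Cardiomyocyte markers summed to 327 in the second-run control, to 58.9 and 113 in the first-run controls and to between 198 and 329 in the libraries labelled Hsp47-deleted. Single markers differed in this, since *Nppa* read 5.17 in the second-run control, 2.81 and 2.82 in the first-run controls and 2.97, 2.45 and 2.34 under the Hsp47-deleted label. The part of cardiomyocyte RNA in the results was not tested either. Leukocyte markers summed to 122 in the second-run control, to 38.9 and 81.3 in the first-run controls and to between 122 and 160 in the libraries labelled Hsp47-deleted, with *Ptprc*, the gene of the common leukocyte antigen CD45, listed at 0 in all 6 libraries. Schwann cell markers reached at most 22.1, adipocyte markers 3.42 and mesothelial markers 1.47 in any library. Fibroblast markers summed to 15000 in the second-run control, to 9590 and 9300 in the first-run controls and to between 16000 and 19800 in the libraries labelled Hsp47-deleted. Of the 10 fibroblast markers, 8 had positive log2 differences, the highest that of *Postn*, the locus that drives the Cre (4.41, and 4.24 against the second-run control). *Lum* and *Ddr2* had -0.11 and -0.21, which became -0.24 and 0.35 against the second-run control. In that comparison *Pdgfra* and *Col3a1* turned to -0.28 and -0.040.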

How the data were processed

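EGFP+ cells sorted from mouse ventricles were profiled by RNA-seq in 6 libraries, 3 labelled control and 3 labelled Hsp47-deleted. The values deposited by the authors are log2(value + 1) per gene, 28987 genes in all, and each library has its own column. Further columns of group averages, fold changes, p-values and adjusted p-values hold the authors' own comparison and were not used. The submitters' processing notes name kallisto and mm10 without roles, and the paper names AltAnalyze. The linear unit is not named, the values are not counts, and depth per library is unknown, so intervals that would need it are left out. The deposited values were used with their pseudocount of 1. Genes with a linear mean of at least 1 were kept (15109 genes, with 13878 left out) and compared between the groups with limma (version 3.58.1, R 4.3.3), using lmFit and then eBayes with trend, no covariate and Benjamini-Hochberg adjustment over all of them. The fold changes understate changes of low values. The labels do not say that each library is a separate animal, so p-values measure the spread between these libraries, which may in part be technical. Identical values in a pair of libraries occurred at 227 tested genes at most. The fit was tested on simulated data, in which it called 61 of 200 changed genes and 2 unchanged ones. A gene that was not called may thus have changed.

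The members, gene lists, pairs and tests were chosen with earlier results of these data known. The text names all members, *Serpinh1*, and in each list of other basement membrane genes the genes with an unadjusted p under 0.05, at most the 5 with the smallest p. Any other gene was picked with its values in view. Older symbols were matched through RefSeq synonyms. Positions, lengths and GC content come from GENCODE release M21 (GRCm38), and promoter windows from RefSeq. Pairs of genes were compared by an exact two-sided permutation test. The alternatives were sequencing run as a covariate, the second run alone, a block for the replicate number, the filter dropped or raised to a mean of 5, a pseudocount of 0.1 or of 5, quantile normalization, median centring, limma without the trend or with robust estimation (statmod 1.5.0), and each library left out in turn. A common linear sum and removal of GC and length trends (lowess, span 0.3) were added after the data were seen.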

Additional observations from a re-analysis of the deposited data

How the results depend on the processing

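Over 19 alternatives, 3 of the 10 basement membrane genes kept the sign of their difference in all (*Col18a1* and *Hspg2* positive, *Nid1* negative). The median over the 10 genes moved from 0.14 to -0.28 with median centring, to -0.41 with quantile normalization, to -0.31 with GC and length trends removed and to -0.058 with run as a covariate or the second run alone. With 1 library left out it ranged from 0.057 to 0.34, the highest without control replicate 2, and lay below the all-gene median in each of the 19. Without control replicate 2 the basement membrane genes called were 2, and with any other library left out 0. The genes higher at an unadjusted p under 0.05 numbered 2, and were 1 with no filter, a mean of at least 5, no trend, robust estimation or a common linear sum, and 0 with median centring, quantile normalization, GC and length trends removed or run as a covariate, with a range from 0 to 2 when a library was left out (0 without control replicate 3, control replicate 4, Hsp47-deleted replicate 1 or Hsp47-deleted replicate 2). Genes lower at that threshold numbered 1 with quantile normalization (*Nid1*) and 1 with GC and length trends removed (*Col15a1*). The 9 pathway genes at that threshold became 2 with either median centring or quantile normalization and 4 with GC and length trends removed, and from 2 (without Hsp47-deleted replicate 2) to 31 (without control replicate 2) with a library left out. Over all genes, the 37 called became from 8 to 2768 with a library left out, and 50 with run as a covariate, 18 with median centring, 17 with quantile normalization, 15 with GC and length trends removed, 13 with no filter and 16 with a pseudocount of 0.1.

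Signs turned as follows. *Col4a1* was -0.30 with GC and length trends removed and -0.0068 with quantile normalization, and *Col4a2* was -0.32 with the former. *Lama2* was -0.18 with GC and length trends removed, -0.34 with median centring, -0.42 with quantile normalization, -0.054 with a common linear sum and -0.040 with run as a covariate or the second run alone. *Lamc1* was -0.28, -0.21 and -0.41 in the first 3 of these and -0.20 in the last. With a library left out, *Col15a1* ranged from -0.35 to 0.051, *Lama4* from -0.26 to 0.27 and *Lamb1* from -0.25 to 0.086, and they were positive without Hsp47-deleted replicate 3 (0.051, 0.075 and 0.0024), the latter pair also without control replicate 2. *Serpinh1* was -0.65, -0.34, -0.27, -0.055 and -0.87 in the order given for *Lama2*, and ranged from -0.21 to 0.54 with a library left out. The *Lamb1* to *Lamc1* difference was -0.074 with quantile normalization. With the second run alone the differences *Lama4* to *Lama2*, *Nid1* to *Lamc1* and *Col18a1* to *Col15a1* were -0.72, 0.12 and 0.58. The causes were not tested, beyond the smaller number of libraries.

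With the replicate number as a block, 0 of all tested genes and 0 of the 10 were called, 1 of the 10 (*Col18a1*) and 5 pathway genes were at an unadjusted p under 0.05, the median over the 10 was 0.04 and *Serpinh1* was -0.28. The groups share numbers 2 and 3 only. Same-numbered libraries had correlations of deviations of 0.156 and 0.228, lower than 0.382 between control replicate 2 and Hsp47-deleted replicate 1. With 3 libraries per group and 2 runs among the controls, these correlations cannot decide whether libraries are paired. The labels name nothing that a number marks.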
